A study of Homo sapiens with 4 samples.

Results

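The SLC25 mitochondrial carriers were described in KBM5 cells, an established human chronic myeloid leukemia line that carries the BCR-ABL kinase. Members were all rows of the deposited expression table whose symbol is SLC25A followed by a number and whose description does not name a pseudogene, which gave 48 of 50868 genes. Their expression was measured by mRNA sequencing in 4 groups with 1 library each: untreated cells (CTR), cells given DSF, cells given IM, and cells given both (IM-DSF). The names IM and DSF are taken to stand for imatinib, an inhibitor of the BCR-ABL kinase, and disulfiram. The labels give the cell line and no dose, time or separate culture, and they call the tissue blood. According to its title the study concerns joint targeting of BCR-ABL and of GPX4, an enzyme that reduces lipid peroxides with glutathione. Each group has a single library, hence no replicate error and no test, and every difference below is between 2 libraries. Intervals are 95% intervals of counting error only, from approximate fragment numbers.

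SLC25 proteins are the main carriers of the inner mitochondrial membrane. Each moves a small set of solutes, among them ADP and ATP, phosphate, citrate, amino acids, cofactors and iron, and most exchange one solute for another. They are encoded in the nucleus, made in the cytosol without a cleaved signal in most cases, and inserted into the inner membrane by the TIM22 complex after passage through the TOM pore.

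Values are in FPKM, the number of fragments divided by gene length and library depth, so levels can be compared between genes as far as the unstated gene lengths behind them hold. Library depths recovered from single-exon genes were 14513000 (CTR), 14705000 (DSF), 15813000 (IM) and 12443250 (IM-DSF) fragments, and genes of the mitochondrial genome held 30.1% to 32.6% of the summed FPKM. As a check of the cell type, several granule and myeloid genes were abundant (PRTN3 at 769 FPKM and CEBPA at 153 in CTR). Others of the list were low, with MPO at 2.49 and CD33 at 8.56 FPKM in CTR. The 6 erythroid markers summed to at most 0.703 FPKM in any library. Of 7 lymphoid markers, NKG7 alone passed a mean of 1 FPKM (10.8 to 13.3). Of the stem cell markers, KIT was listed at 0 in every library, and CD34 had 0.00554 FPKM in CTR and was listed at 0 elsewhere. The summed level of the 10 myeloid and stem cell markers moved with the groups, at 1627 FPKM in CTR, 2163 with DSF, 2736 with IM and 2682 with both. PRTN3 alone made up 769 FPKM of the CTR sum. Of the 8 markers with a mean of 1 FPKM or more, 8 were above CTR in IM, beside 53.1% of all genes. In IM-DSF against DSF 5 were above and 3 below, beside 51.7% and 48.3% of all genes. The part of these markers in the differences below was not tested.

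Promoters are shown for 4 members on which the results turn: SLC25A5 and SLC25A6, the abundant ADP/ATP carriers, whose levels differed from CTR in opposite directions, SLC25A33, which was lower than CTR in all treated libraries, and SLC25A46, which was higher in all of them. Each is the 300-base window around an annotated start, 5′ to 3′ on the gene's strand, from RefSeq on GRCh38.p14. SLC25A5 lies at chrX:119468194-119468493 (plus strand), SLC25A6 at chrX:1392064-1392363 (minus), SLC25A33 at chr1:9539215-9539514 (plus) and SLC25A46 at chr5:110738757-110739056 (plus). Capitals mark matches on either strand to 4 motifs: the E-box CACGTG, the CCAAT box CCAAT, the GC box GGGCGG and the ETS core CCGGAAG.
SLC25A5: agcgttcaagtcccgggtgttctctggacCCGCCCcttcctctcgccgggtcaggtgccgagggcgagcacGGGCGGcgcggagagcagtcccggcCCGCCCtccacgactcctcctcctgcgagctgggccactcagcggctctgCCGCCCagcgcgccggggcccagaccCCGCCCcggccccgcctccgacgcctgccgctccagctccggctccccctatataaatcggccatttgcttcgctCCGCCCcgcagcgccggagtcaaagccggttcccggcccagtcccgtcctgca
SLC25A6: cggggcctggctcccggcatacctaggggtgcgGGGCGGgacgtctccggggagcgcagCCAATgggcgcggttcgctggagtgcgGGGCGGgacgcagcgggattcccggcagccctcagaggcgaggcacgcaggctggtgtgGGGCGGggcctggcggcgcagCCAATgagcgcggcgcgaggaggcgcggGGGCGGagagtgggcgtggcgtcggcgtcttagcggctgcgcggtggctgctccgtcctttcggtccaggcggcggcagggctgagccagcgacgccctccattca
SLC25A33: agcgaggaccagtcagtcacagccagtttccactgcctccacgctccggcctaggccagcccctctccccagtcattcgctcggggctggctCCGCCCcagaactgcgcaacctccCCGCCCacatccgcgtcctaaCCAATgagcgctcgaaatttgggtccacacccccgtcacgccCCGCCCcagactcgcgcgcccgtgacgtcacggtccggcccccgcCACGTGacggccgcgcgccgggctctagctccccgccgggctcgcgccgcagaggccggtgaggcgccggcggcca
SLC25A46: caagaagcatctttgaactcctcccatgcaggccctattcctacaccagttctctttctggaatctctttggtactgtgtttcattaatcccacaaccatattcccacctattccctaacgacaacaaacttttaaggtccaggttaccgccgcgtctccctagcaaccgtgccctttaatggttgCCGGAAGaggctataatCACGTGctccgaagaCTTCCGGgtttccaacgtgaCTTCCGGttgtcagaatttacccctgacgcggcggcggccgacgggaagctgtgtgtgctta
The SLC25A5 window held 6 GC boxes and none of the other motifs. The SLC25A6 window held 4 GC boxes and 2 CCAAT boxes. SLC25A33 had 1 E-box, 1 CCAAT box and 3 GC boxes, and SLC25A46 had 1 E-box and 3 ETS cores and no GC box. Matches did not overlap in these windows. The GC content was 73.7%, 75.7% and 72.7% in the first 3 and 51% in SLC25A46. The promoter table matched 40 of the 48 members with 50 windows, since some genes have several starts. Of these windows 18% held an E-box, 44% a CCAAT box, 66% a GC box and 22% an ETS core, against 8.34%, 34.6%, 56.3% and 12.8% of 22131 windows of protein-coding genes. A match is a description of letters in these windows and no evidence of binding.

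The summed FPKM of the family was dominated by a few members. Of the 48 genes, 9 had 10 FPKM or more on average, 11 had 5 to 10, 12 had 1 to 5, 11 lay above 0 but under 1, and 5 were listed at 0 everywhere. The 32 genes with a mean of 1 FPKM or more are those whose differences are counted below. SLC25A5, SLC25A6 and SLC25A1, the citrate carrier, together held 51.2% of the family's summed FPKM in CTR, 53.9% with DSF, 52.4% with IM and 49.9% with both. This ranking depends on the unstated gene lengths. If these were union exon lengths, SLC25A3 had more fragments in CTR (about 3745) than SLC25A5 (about 2819). The union exon length of SLC25A3 is 8896 bases and its median coding transcript 1359. The family as a whole kept nearly the same sum, at 439 FPKM in CTR, 451 with DSF, 439 with IM and 427 with both, which is 0.153% to 0.158% of all FPKM in a library.

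**Figure D1:**
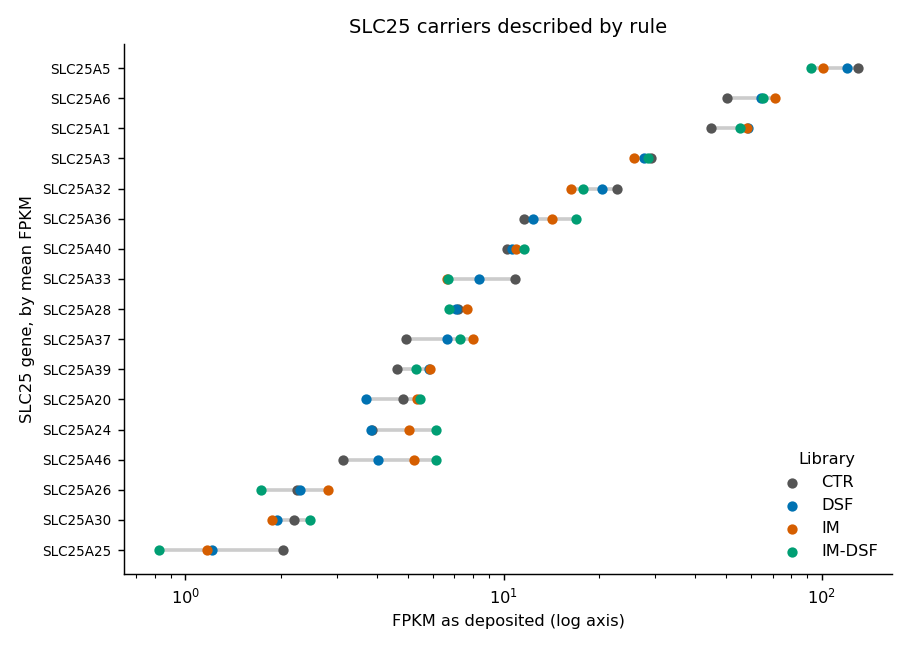
FPKM as deposited (log axis) of 17 carriers, the most abundant, those with the largest differences and those of iron and glutathione, ordered by mean; each point is 1 library and grey bars join the lowest and highest. SLC25A5 is at the top, at 92.4 to 129 FPKM, and SLC25A25 spans the widest ratio, from 0.824 to 2.02.

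The spread across libraries was small for most members. The ratio of the highest to the lowest library had a median of 1.38 over the 32 members, the same as over all 11004 genes with a mean of 1 FPKM or more, and it passed 1.5 in 25% of the members and 36.9% of all genes. The narrowest was SLC25A11, the oxoglutarate carrier of the malate-aspartate shuttle, with 9.52, 9.59, 9.33 and 9.20 FPKM (CTR, DSF, IM, IM-DSF). SLC25A44, a carrier of branched-chain amino acids, was as even, at 5.83, 5.58, 5.80 and 5.75 FPKM in the same order. The widest was SLC25A25 (2.45-fold), described with the ATP-Mg carriers.

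ADP/ATP carriers export ATP to the cytosol in exchange for ADP, and the 2 abundant ones differed from CTR in opposite directions. SLC25A5 (ENSG00000005022; GRCh38.p14 chromosome X, 119468400 to 119471319), the isoform common in dividing cells, had 129 FPKM in CTR, 119.9 with DSF, 101 with IM and 92.4 with both. It was highest in CTR and lowest in IM-DSF. The ratio was 0.779 (0.737 to 0.823) for IM against CTR and 0.771 (0.725 to 0.819) for IM-DSF against DSF, which share no library. In bulk RNA, a difference in the mix of cells and a difference in RNA per cell cannot be told apart, here and below.

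SLC25A6 (ENSG00000169100; chromosome X, 1386152 to 1392724), an isoform expressed in many tissues, had 50.4 FPKM in CTR, 64.2 with DSF, 71.1 with IM and 65.4 with both. The 3 treated libraries lay above CTR, by 1.41-fold in IM (1.32 to 1.50) and 1.27-fold in DSF (1.19 to 1.36). IM-DSF against DSF gave 1.02 (0.955 to 1.09), which includes 1. The ratio of SLC25A5 to SLC25A6 was 2.57 in CTR (2.42 to 2.73), 1.87 in DSF (1.76 to 1.98), 1.42 in IM (1.34 to 1.50) and 1.41 in IM-DSF (1.32 to 1.51). Of the summed ADP/ATP carrier FPKM, SLC25A5 thus made up 70.4% in CTR and 57.1% in IM-DSF, while SLC25A6 made up 27.4% and 40.4%.

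SLC25A4, the isoform of heart and muscle, stayed at 2.24% to 2.48% of that sum, with 4.12, 4.68, 4.38 and 3.90 FPKM (CTR, DSF, IM, IM-DSF). SLC25A31, the testis isoform, was listed at 0 in all libraries. These genes are similar in sequence, SLC25A6 has a second copy in the pseudoautosomal region of chromosome Y, and it is not known how reads that fit several copies were counted. The 9 pseudogenes named after SLC25A5 summed to at most 0.360 FPKM in a library, and the 6 named after SLC25A6 were listed at 0.

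**Figure D2:**
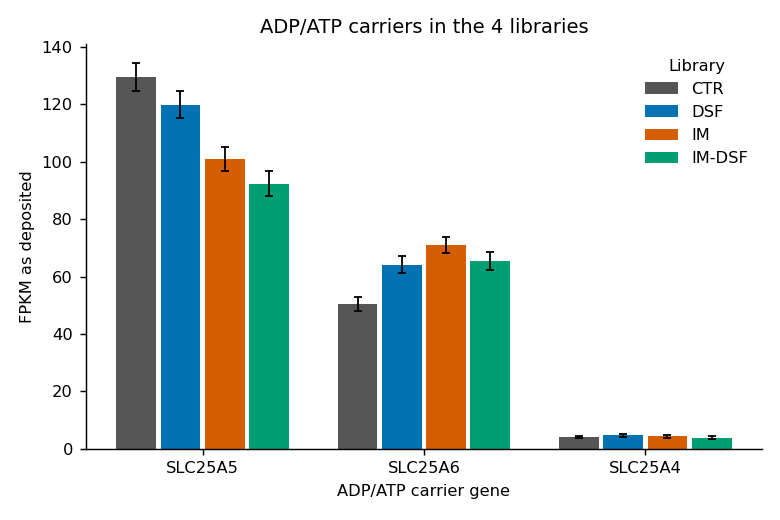
FPKM as deposited of the 3 expressed ADP/ATP carrier genes, 1 bar per library, with 95% Poisson intervals from approximate fragment numbers (counting error only). SLC25A5 steps down from 129 FPKM in CTR to 92.4 in IM-DSF, while SLC25A6 is lowest in CTR at 50.4.

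SLC25A3 (ENSG00000075415; chromosome 12, 98593591 to 98606379), which brings in the phosphate that ATP synthase uses and also carries copper, had 29.004, 27.6, 25.7 and 28.5 FPKM (CTR, DSF, IM, IM-DSF). All 4 values lay within 1.13-fold. IM was 0.887 times CTR (0.848 to 0.929), and IM-DSF was 0.981 times CTR (0.935 to 1.03), an interval that includes 1.

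ATP-Mg/phosphate carriers adjust the adenine nucleotide pool of the matrix, and their 3 measured members differed in direction. SLC25A24 (ENSG00000085491; chromosome 1, 108134036 to 108200849) had 3.86 FPKM in CTR, 3.82 with DSF, 5.03 with IM and 6.15 with both. The IM library was 1.30 times CTR (1.14 to 1.49), and IM-DSF was 1.61 times DSF (1.41 to 1.84). SLC25A23 was likewise higher with IM, at 8.61 and 9.37 FPKM in CTR and DSF and 11.7 and 11.4 in IM and IM-DSF. The 2 pseudogenes named after SLC25A24 had 1.16 to 2.06 FPKM together, so the division of reads between them and SLC25A24 is uncertain.

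SLC25A25 (ENSG00000148339; chromosome 9, 128068201 to 128109245) went the other way, with 2.02 FPKM in CTR, 1.21 with DSF, 1.17 with IM and 0.824 with both. CTR was highest and IM-DSF lowest, at 0.408 times CTR (0.292 to 0.568), the lowest ratio to CTR among the 32 measured members. About 51 fragments lie behind the IM-DSF value. Its exons overlap genes on the other strand, including SLC25A25-AS1, which had 0.777, 0.724, 0.851 and 0.905 FPKM (CTR, DSF, IM, IM-DSF). SLC25A41 had a mean of 0.113 FPKM.

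The citrate carrier SLC25A1 (ENSG00000100075; chromosome 22, 19175575 to 19178830), which supplies citrate for fatty acid and sterol synthesis, had 44.9 FPKM in CTR, 58.7 with DSF, 58.2 with IM and 55.5 with both. CTR was the lowest and the 3 treated libraries lay close together. It was 1.31-fold higher in DSF than in CTR (1.22 to 1.40) and 1.30-fold higher in IM (1.21 to 1.39), while IM-DSF was 0.946 times DSF (0.882 to 1.01) and 0.954 times IM (0.890 to 1.02). The dicarboxylate carrier SLC25A10 ranged from 4.50 FPKM (IM) to 6.16 (DSF), and in all 5 contrasts its interval included 1. SLC25A34 and SLC25A35 had means of 0.084 and 0.730 FPKM, and SLC25A21, the oxoadipate carrier, was listed at 0.

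Carriers of aspartate and glutamate feed the malate-aspartate shuttle and glutamate metabolism. All 3 measured members lay below CTR in IM, as did 46.9% of all genes. SLC25A13 (citrin) had 9.55 FPKM in CTR, 7.84 with DSF, 7.44 with IM and 6.53 with both, which was 0.684 times CTR (0.590 to 0.789). SLC25A12 (aralar) had 5.58, 4.90, 4.98 and 4.80 FPKM in the same order, and its interval for IM against CTR included 1 (0.776 to 1.02). SLC25A22, a glutamate carrier, had 3.22 and 3.20 FPKM in CTR and DSF and 2.24 and 2.40 in IM and IM-DSF. Its ratio was 0.696 for IM against CTR (0.566 to 0.858) and 0.748 for IM-DSF against DSF (0.602 to 0.932). The summed FPKM of these carriers went from 18.4 in CTR to 13.8 in IM-DSF, or 0.753 times. SLC25A18, the other glutamate carrier, had a mean of 0.040 FPKM.

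Among carriers of other amino acids and carnitine, SLC25A38, which brings in glycine for heme synthesis, was the most abundant, at 20.2, 18.4, 19.1 and 18.2 FPKM (CTR, DSF, IM, IM-DSF). SLC25A15, the ornithine carrier of the urea cycle, ranged from 5.52 to 6.60 FPKM. SLC25A20, which exchanges acylcarnitines for carnitine in fatty acid oxidation, had 4.84 FPKM in CTR, 3.71 with DSF, 5.34 with IM and 5.45 with both. DSF was its lowest library, and IM-DSF was 1.47-fold higher than DSF (1.13 to 1.91). SLC25A29, a carrier of basic amino acids just under the level limit, had 0.438, 0.760, 1.20 and 1.17 FPKM, and it shares exon bases with another gene on its strand. IM was 2.75 times CTR (1.98 to 3.94) and IM-DSF 2.66 times CTR (1.89 to 3.86), with about 47 fragments behind the CTR value. SLC25A45 had a mean of 0.033 FPKM, and SLC25A2, SLC25A47 and SLC25A48 were listed at 0.

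Of 10 carriers of cofactors and nucleotides, 9 were measured. SLC25A33 (ENSG00000171612; chromosome 1, 9539482 to 9585179), a pyrimidine nucleotide carrier, had 10.9 FPKM in CTR, 8.40 with DSF, 6.66 with IM and 6.67 with both. All treated libraries lay below CTR, and the 2 with IM were level with each other. IM was 0.614 times CTR (0.540 to 0.697) and IM-DSF was 0.794 times DSF (0.687 to 0.917). SLC25A36, the other pyrimidine nucleotide carrier, had 11.6, 12.3, 14.1 and 16.9 FPKM and was highest in IM-DSF, at 1.46 times CTR (1.37 to 1.56). For both genes the intervals of IM and IM-DSF against CTR left out 1.

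SLC25A32 (ENSG00000164933; chromosome 8, 103398635 to 103415189), a carrier of folate and FAD, had 22.8 FPKM in CTR, 20.4 with DSF, 16.2 with IM and 17.7 with both. CTR was highest, and IM was 0.714 times CTR (0.654 to 0.777). SLC25A26, which brings S-adenosylmethionine into mitochondria, had 2.24, 2.29, 2.80 and 1.72 FPKM, with IM highest and IM-DSF lowest. IM-DSF was 0.616 times IM (0.496 to 0.768), but its interval includes 1 when fragment numbers are taken from the shorter median coding transcript. SLC25A51, a carrier of NAD, ranged from 2.03 to 2.55 FPKM. SLC25A17, of the peroxisome, ranged from 1.82 to 2.52 FPKM, SLC25A16 from 0.991 to 1.74, and SLC25A42, a coenzyme A carrier, from 0.950 to 1.46. SLC25A52, a close relative of SLC25A51, had a mean of 0.103 FPKM.

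The iron and glutathione carriers are the members nearest to the study's question, since iron drives lipid peroxidation and GPX4 uses glutathione. SLC25A37 (ENSG00000147454; chromosome 8, 23528805 to 23575463), mitoferrin-1, had 4.93 FPKM in CTR, 6.65 with DSF, 8.04 with IM and 7.29 with both. CTR was the lowest library and IM the highest, at 1.63 times CTR (1.47 to 1.81). DSF was 1.35 times CTR (1.21 to 1.50), and IM-DSF was 1.10 times DSF (0.991 to 1.21). SLC25A28, mitoferrin-2, had 7.18, 7.08, 7.66 and 6.73 FPKM, with every interval including 1. The ratio of SLC25A37 to SLC25A28 was 0.686 in CTR (0.581 to 0.810), 0.939 with DSF, 1.05 with IM and 1.08 with both (0.908 to 1.29).

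SLC25A39, which brings glutathione into mitochondria, had 4.62 FPKM in CTR, 5.81 with DSF, 5.86 with IM and 5.30 with both. CTR was again the lowest. The ratio was 1.26 in DSF (1.06 to 1.50) and 1.27 in IM (1.07 to 1.51), but both intervals include 1 with the shorter length. SLC25A40, its close relative, had 10.2, 10.6, 11.0 and 11.6 FPKM, with only IM-DSF against CTR beyond counting error (1.13-fold, 1.02 to 1.26).

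SLC25A46 (ENSG00000164209; chromosome 5, 110738136 to 110765161) sits in the outer membrane and acts in mitochondrial fission and cristae shape rather than in solute exchange. It had 3.12 FPKM in CTR, 4.03 with DSF, 5.24 with IM and 6.12 with both. Each treated library was above CTR, and IM-DSF was highest at 1.96 times CTR (1.72 to 2.24), the highest ratio to CTR among the 32 members. The IM library was 1.68 times CTR (1.48 to 1.91), and IM-DSF was 1.52 times DSF (1.35 to 1.72). SLC25A43, an orphan carrier with a mean of 0.950 FPKM, had 1.15, 0.613, 0.861 and 1.18 FPKM, and SLC25A53 had a mean of 0.164. Of the carriers related to uncoupling proteins, SLC25A30 had 2.19, 1.94, 1.87 and 2.46 FPKM (CTR, DSF, IM, IM-DSF), SLC25A14 had a mean of 0.769 and SLC25A27 of 0.022.

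**Figure D3:**
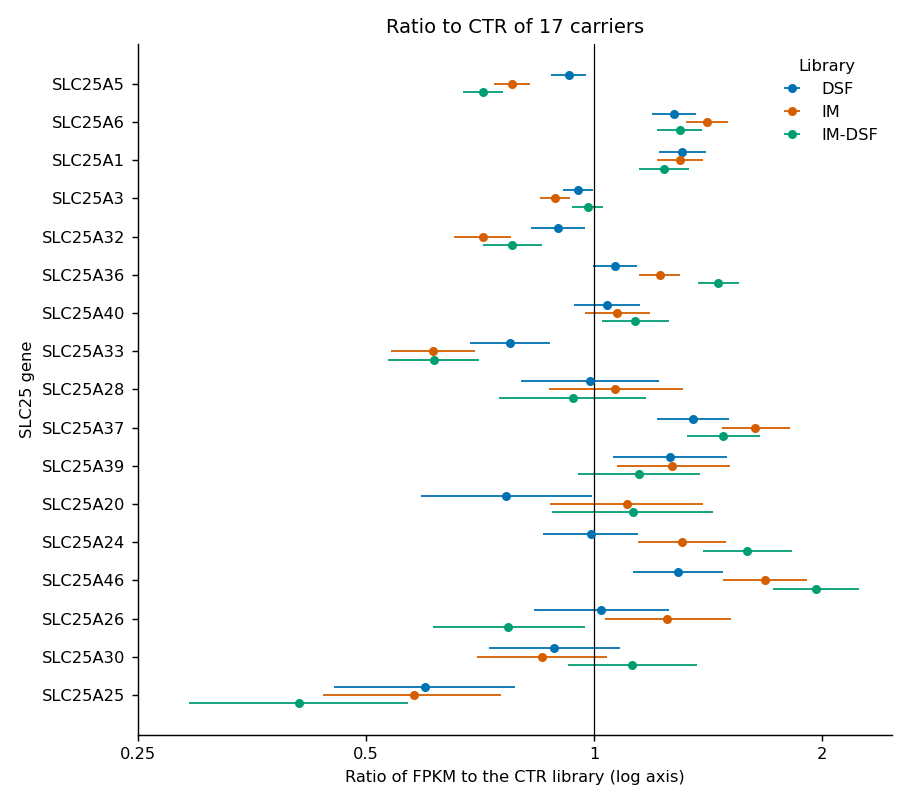
Ratio of FPKM to the CTR library (log axis) in DSF, IM and IM-DSF for the 17 carriers described by rule, ordered by mean level, with 95% intervals of counting error; the 3 ratios of a gene share the CTR library. SLC25A46 reaches 1.96 and SLC25A25 0.408 in IM-DSF.

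The effect of IM can be read without DSF (IM against CTR) and on top of DSF (IM-DSF against DSF). Differences are given in log2(FPKM + 1), a scale on which low genes appear to change less than they did, and are counted by size, since no test is possible. At 0.5 log2 units or more, 2 of 32 members were higher in IM than in CTR (SLC25A37 and SLC25A46), against 9.38% of all genes, and 1 was lower (SLC25A33), against 5.67%. In IM-DSF against DSF 2 were higher (SLC25A24 and SLC25A46), against 7.66%, and 0 were lower, against 6.92%. SLC25A46 was the member past this size in both, but its 0.50 in IM-DSF against DSF became 0.49 with median-of-ratios factors and 0.48 with trimmed-mean factors, under the size. At 1 log2 unit no member was past the size in either contrast, where 1.54% and 1.33% of all genes were higher and 0.891% and 1.05% lower. On this scale and with this filter, the share of carriers past a size was near or below that of all genes.

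The median over the members was -0.02 log2 units in IM against CTR and -0.06 in IM-DSF against DSF, and over all genes it was 0.02 and 0.01. In IM 15 members lay above CTR and 17 below. The direction was the same in both contrasts for 24 of the 32 members (75%), 10 above 0 and 14 below, and for 70.8% of all genes. With both differences at least 0.25 log2 units in size there were 9 members, 5 higher in both (SLC25A46, SLC25A36, SLC25A24, SLC25A23 and SLC25A16) and 4 lower in both (SLC25A5, SLC25A33, SLC25A25 and SLC25A22), with 0 opposite. These 9 are 28.1% of the members, beside 26.3% of all genes (12.7% higher in both, 10.3% lower in both and 3.27% opposite).

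**Figure D4:**
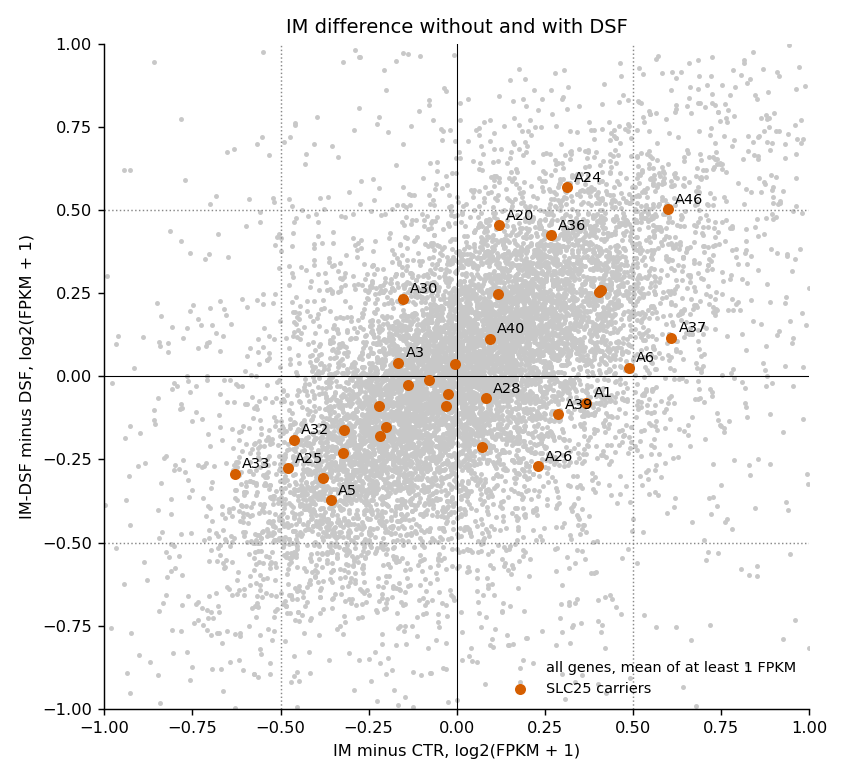
Difference in log2(FPKM + 1) of IM minus CTR (x axis) and IM-DSF minus DSF (y axis), which share no library; orange points are the 32 carriers, labelled without the prefix SLC25 where they are described by rule, and grey points are all genes with a mean of 1 FPKM or more. Dotted lines mark 0.5 log2 units, and 459 genes beyond 1 log2 unit on either axis are left out; SLC25A46 lies past 0.5 on both axes.

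The effect of DSF can be read without IM (DSF against CTR) and on top of IM (IM-DSF against IM). No member was past 0.5 or 1 log2 units in either. Among all genes 3.49% were higher and 2.81% lower by that size in DSF against CTR, and 3.19% and 4.65% in IM-DSF against IM. By 1 log2 unit these shares were 0.545% and 0.573% in the former and 0.7% and 1.04% in the latter. The members' differences ran from -0.45 (SLC25A25) to 0.38 (SLC25A1) in the former and from -0.48 (SLC25A26) to 0.27 (SLC25A30) in the latter. Their medians were -0.01 and -0.02 (the latter 0.02 after rescaling to TPM), beside 0.00007 and -0.001 over all genes. The direction was the same in both contrasts for 46.9% of the members and 55.2% of all genes. SLC25A46 was above in both, at 1.29 times CTR in DSF (1.13 to 1.48) and 1.17 times IM in IM-DSF (1.05 to 1.30), though both intervals include 1 with the shorter length. SLC25A5 was below in both, at 0.926 (0.878 to 0.977) and 0.916 (0.861 to 0.975).

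The combination was set against untreated cells in IM-DSF against CTR. At 0.5 log2 units 3 members were higher (SLC25A46 at 0.79, SLC25A24 at 0.56 and SLC25A36 at 0.51), against 12.2% of all genes, and 2 were lower (SLC25A25 at -0.73 and SLC25A33 at -0.63), against 10.4%. No member was past 1 log2 unit, where 2.54% of all genes were higher and 1.74% lower. The median was -0.02 over the members and 0.02 over all genes, and the median size of a difference, whatever its sign, was 0.20 and 0.27 log2 units.

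Where the effects of both agents simply add up in log2, the IM-DSF difference from CTR equals the sum of the DSF and IM differences; the departure is what is left over, and it rests on the same 4 libraries throughout. Its counting interval lay below 0 for 6 of the 32 members and above 0 for 6, against 18.9% and 17% of the 10962 genes with an annotated length. With fragment numbers from the shorter median coding transcript the members were 4 and 3, and the intervals of SLC25A26 and SLC25A39 included 0. The shares of all genes were not computed with that length. The most negative were SLC25A26 (-0.50, interval -0.79 to -0.21), SLC25A37 (-0.49, -0.67 to -0.32) and SLC25A6 (-0.46, -0.59 to -0.33), followed by SLC25A1 (-0.45), SLC25A39 (-0.40) and SLC25A4 (-0.28). In SLC25A37, SLC25A6, SLC25A1 and SLC25A39 the CTR library was the lowest of the 4 and each agent alone was above it. The combination was not above the higher single agent in any of them. A low CTR value by itself makes the departure more negative, and CTR was the lowest library in 25% of the 32 members and 33.1% of all genes. The most positive were SLC25A30 (0.39, 0.12 to 0.66), SLC25A33 (0.34, 0.10 to 0.58) and SLC25A20 (0.34, -0.07 to 0.74), the last with an interval that includes 0. In SLC25A33 each agent alone was below CTR and the combination was level with IM. The median departure was 0.05 over the members and -0.01 over all genes.

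Of 13 genes of the import route to the inner membrane, 12 had a mean of 1 FPKM or more. All 12 were below CTR in IM and below DSF in IM-DSF, with medians of -0.32 and -0.35 log2 units. The intervals of TIMM10B, TIMM29 and TIMM9 included 1 in both contrasts, and that of TIMM8A did in IM-DSF against DSF. AGK, under the level limit, was above CTR in IM (0.966 and 1.12 FPKM) and below DSF in IM-DSF (0.884 and 0.727). Over all genes 46.9% and 48.3% were below 0 in these contrasts, and of the 32 carriers 17 and 19. At 0.5 log2 units 2 and 4 of the 12 import genes were lower, against 5.67% and 6.92% of all genes. TIMM8B, an intermembrane space chaperone, had 20.5 FPKM in CTR, 19.9 with DSF, 9.47 with IM and 7.48 with both. TOMM40, the pore of the outer membrane, had 19.3, 23.7, 12.1 and 10.1 FPKM. TIMM22, the pore that inserts carriers, had 9.19, 9.41, 7.05 and 6.44 FPKM. The difference between this list and the carriers was not tested.

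Of 5 relatives that carry other symbols, UCP2, an uncoupling protein, was higher with IM, at 12.7 and 14.1 FPKM in CTR and DSF and 18.8 and 24.7 in IM and IM-DSF. MTCH2, an outer membrane insertase, was lower, at 42.1 and 40.1 against 34.1 and 32.3 FPKM, and MTCH1 was even (34.2 to 35.3). UCP1 was listed at 0 and UCP3 had at most 0.422 FPKM. Of 17 mitochondrial transporters outside the family 9 were above CTR in IM and 8 below, beside 53.1% and 46.9% of all genes. By 0.5 log2 units 3 were lower, against 5.67% of all genes: VDAC1, an outer membrane channel (53.6 and 34.3 FPKM in CTR and IM), LETM1, an ion exchanger (19.96 and 13.6), and the serine carrier SFXN1 (3.68 and 2.19). In IM-DSF against DSF 7 of the 17 were above and 10 below, beside 51.7% and 48.3% of all genes. By that size 0 were lower (VDAC1 -0.37, LETM1 -0.49, SFXN1 -0.26), against 6.92% of all genes. Of 15 ATP synthase subunits, 11 were below CTR in IM (median -0.14) and 12 below DSF in IM-DSF (median -0.18). Of all genes 46.9% and 48.3% were below in these contrasts. By 0.5 log2 units 1 and 5 of the 15 were lower, against 5.67% and 6.92% of all genes. None was higher by that size, against 9.38% and 7.66% of all genes.

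**Figure D5:**
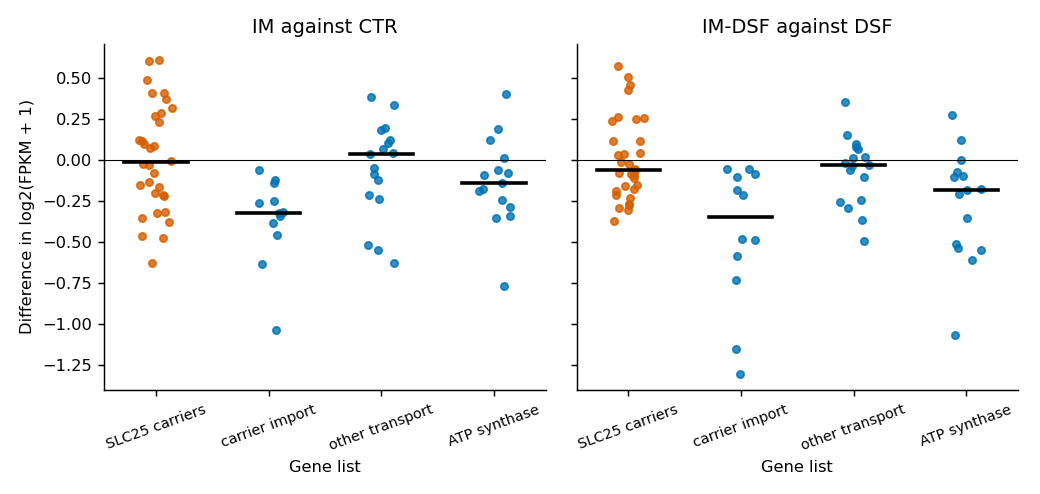
Difference in log2(FPKM + 1) of each gene with a mean of 1 FPKM or more in IM against CTR (left) and IM-DSF against DSF (right) for the SLC25 carriers and 3 lists of related genes; black bars are medians. All 12 carrier import genes lie below 0 in both contrasts, while the carriers lie on both sides.

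Annotation limits some members. The exons of 19 members overlap a gene on the other strand and those of 5 overlap one on their own strand, among them SLC25A3, SLC25A10 and SLC25A51. The library kit keeps strand, but whether the counting used it is not given in the sources used here.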

How the data were processed

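The authors deposited 1 table of FPKM for 50868 genes with 1 column per library, per the file headers. The submitters' processing notes name HISAT2 2.0.4 and, as build, GRCh38.p14. Not given in the sources used here are the counter, annotation, gene lengths and use of strand. Coordinates are those of the table. The members, lists, contrasts and size rules were chosen with earlier results of these data known.

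In single-exon genes of GENCODE 29, FPKM times length was a whole multiple of 1 step, within 0.05, for 95.8% to 96.2% of the genes used, which gave each library's denominator. Fragment numbers came from these denominators and union exon lengths, and gave exact conditional binomial intervals of the ratio of 2 FPKM values at 95%. They are approximate for genes with several exons, cover counting error only and are too narrow where reads are PCR copies. Intervals of departures and of ratios between genes are normal approximations. Differences are in log2(FPKM + 1) for genes that averaged 1 FPKM or more, counted at 0.5 and 1 log2 units. The size rules were tested on simulated counts with 200 changed genes, and the ratio intervals on separate simulated pairs of counts. Only counting error was simulated, with lengths or counts known. Analyses used Python 3.11.15, pandas 2.3.3 and scipy 1.17.1.

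Genes described by rule were the 5 with the highest mean, those past 0.5 log2 units in any contrast, the iron and glutathione carriers, and the 3 most positive and 3 most negative departures; other members are given by role, except 1 that is not reported here. The alternatives tried were TPM, median-of-ratios and trimmed-mean factors, a pseudocount of 0.1, a limit of 5 FPKM or none and, chosen after seeing the data, fragment numbers from the median coding transcript.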

Additional observations from a re-analysis of the deposited data

Results flagged for a closer look

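In 4 members the difference between libraries with and without one agent had opposite directions in the absence and presence of the other agent, each beyond counting error. With 1 library per group the difference between these differences was not tested. The rule was not run over all genes, so no background share stands beside this count, and whether it is large cannot be told. Of all genes, whatever the size, 55.2% had the same direction in the pair of contrasts for DSF and 70.8% in that for IM. SLC25A26 was 0.23 log2 units higher in IM than in CTR and -0.27 in IM-DSF against DSF. SLC25A6 was 0.34 higher in DSF than in CTR and -0.12 in IM-DSF against IM. SLC25A37 had 0.37 and -0.13 in the same pair of contrasts. SLC25A3 had -0.07 and 0.14 there. With fragment numbers from the shorter median coding transcript, 1 or both intervals included 1 for SLC25A26, SLC25A37 and SLC25A3, but not for SLC25A6.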

How the results depend on the processing

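No paired analysis was possible because each group has 1 library. No value past 0.5 log2 units changed sign under any alternative run. Counts of members past a size moved most. The shares of all genes past 0.5 log2 units were taken with the reported setting only, so the counts at that size below have no background share.

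With a pseudocount of 0.1, the members lower by 0.5 log2 units were 3 in IM against CTR and 1 each in IM-DSF against DSF and in either contrast for DSF (without IM and on top of it), and 1 (SLC25A25, at -1.20) was lower by 1 log2 unit in IM-DSF against CTR. Rescaled to TPM, the lower counts were 4 in IM against CTR and 1 in either contrast for DSF, SLC25A25 reached -1.06 in IM-DSF against CTR as 1 member past 1 log2 unit, the medians were -0.062 in IM against CTR and 0.021 in IM-DSF against IM, and the median departure was 0.13. With median-of-ratios factors and with trimmed-mean factors, 1 member was higher in IM-DSF against DSF (SLC25A24, without SLC25A46) and 4 were lower in IM-DSF against CTR. At a mean of at least 5 FPKM, which keeps 20 members, 1 was higher in IM against CTR, 0 in IM-DSF against DSF and 1 in IM-DSF against CTR, and 1 was lower there. Without the filter the median in IM-DSF against DSF was 0.00. Scaling moved the median of all genes by under 0.1 log2 units. By 1 log2 unit in IM-DSF against CTR, 318 of 11004 genes were lower with a pseudocount of 0.1 and 284 after rescaling to TPM.

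With fragment numbers from the median coding transcript, the intervals above 1 were 3 in place of 5 in DSF against CTR, and in IM-DSF against IM 2 in place of 5 lay above and 2 in place of 5 below. Departure intervals above 0 were 3 in place of 6. Ratio intervals were counted over the members only, and departure intervals over all genes only with the union exon length. These counts thus have no background share. Depth limits SLC25A25 and the members under 1 FPKM most. Rescaling to TPM multiplied FPKM by 3.48 (IM) to 3.60 (IM-DSF) before the same 1 was added, so the added 1 weighed less there. Its part in the TPM changes and the cause of the other changes were not tested.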
